A study of Arabidopsis thaliana with 3 samples.

Results

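COR15A, COR15B, COR47 and LTI30 are genes of the cold regulon of Arabidopsis thaliana, the set of genes whose transcripts build up while a plant gains freezing tolerance in the cold. The 4 genes were taken by symbol, with earlier results of these arrays known, out of 13350 genes that a probe set names alone. Each was matched by 1 such probe set, of 13513 among 22746 for Arabidopsis. No probe set shared among several genes named any of them, and none of the 4 probe set names carried a mark of cross-hybridization. They are described on 3 Affymetrix ATH1 arrays, an array type that measures a gene with a set of short probes, from all aerial parts of the accession Col-0, with no mutation or transgene named in the labels.

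The cold-acclimated array came from plants raised at 20 °C to growth stage 1.14 with 9 h of light and 15 h of dark a day, then kept at 4 °C under the same day length for 11 days, and harvested at hour 5 of the light period. The 3 h and 24 h arrays came from plants acclimated in the same way, frozen for 20 h once the light period was over and then returned to 20 °C in darkness for 3 h or 24 h. The labels print the freezing temperature as 6.0 °C, with no minus sign. The sources used here do not give the number of plants behind an array. The titles mark each of these arrays as replicate 3, and no array of another replicate was used here. Each group held 1 array, so every comparison is between 2 arrays and has no replicate check. Both recovery arrays differed from the cold-acclimated array by the freezing itself, the temperature, the lack of light at harvest and the hours since light, and the 3 h array also by the hour of the day. These cannot be told apart. In whole aerial parts, fewer cells of a type and less RNA per cell cannot be told apart either.

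In the cold, the CBF transcription factors bind a short element in the promoters of cold regulon genes and switch them on. Drought and the hormone abscisic acid act on many of the same genes, and transcripts of the regulon decline when plants return to warmth, a process called deacclimation. COR15A and COR15B encode small, hydrophilic proteins that enter the chloroplast stroma and protect membranes inside it when cells lose water to ice. COR47 and LTI30 encode dehydrins, which act mainly outside the chloroplast and carry the lysine-rich K-segment through which dehydrins bind membranes. COR47 is an acidic dehydrin and LTI30 a basic one. All of them are counted among the late embryogenesis abundant (LEA) proteins.

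The COR15 transcripts stayed near their acclimated level 3 h after thawing and were then lower at 24 h. The transcripts of the dehydrins COR47 and LTI30 were higher at 3 h and had come back toward, or below, their acclimated level at 24 h. All 4 were lower at 24 h than at 3 h. This is with the usual scaling; scaling to hybridization controls, described with the 3 h values, put both COR15 genes below their acclimated level at 3 h already, LTI30 level with it and COR47 less than 2-fold above it, and put all 4 below it at 24 h. Signals are linear intensities, scaled so that each array had the same 2% trimmed mean. The only error that single arrays give is the disagreement between 2 probe sets of the same gene. Its SD per probe set, in log2 units, was 0.33 for 3 h against cold-acclimated (76 genes), 0.40 for 24 h against cold-acclimated (76 genes) and 0.35 for 24 h against 3 h (75 genes). Over the fewer genes with both probe sets at or above the median signal, as the 4 genes are, it was 0.22 (34 genes), 0.36 (34 genes) and 0.25 (31 genes). It covers error that differs between probe sets on the same arrays and leaves out the spread between plants. It also leaves out any shift shared by a whole array, which cancels between 2 probe sets. Hybridization control scaling made such a shift, of -0.76 in log2 ratio for 3 h against cold-acclimated.

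COR15A, the better studied of the chloroplast pair, had a signal of 3968 in acclimated plants, of 4580 after 3 h and of 1780 after 24 h. The first 2 values lie close together and the 24 h value is 44.8% of the acclimated one. Its log2 ratio to the acclimated array was 0.21 ± 0.33 (SD from probe pairs) at 3 h and -1.16 ± 0.40 at 24 h. The step from 3 h to 24 h was -1.36 ± 0.35, or 2.57-fold lower.

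COR15B, its close relative, was at 2369, 2537 and 545 on the cold-acclimated, 3 h and 24 h arrays. It had the same shape as COR15A with a deeper decline, to 23.0% of the acclimated signal. Its gap to COR15A at 24 h against acclimated was under 2 SD of probe error. The log2 ratio of COR15B was 0.10 ± 0.33 at 3 h and -2.12 ± 0.40 at 24 h against the acclimated array. Between 3 h and 24 h it was 4.65-fold lower (log2 ratio -2.22 ± 0.35).

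COR47, the acidic dehydrin, was at 1288, 3852 and 1426. The 3 h array stood apart, and the other two were within 1.11-fold of each other. The log2 ratio was 1.58 ± 0.33 at 3 h, or 2.99-fold higher than acclimated, and 0.15 ± 0.40 at 24 h. From 3 h to 24 h the signal was 2.70-fold lower (log2 ratio -1.43 ± 0.35).

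LTI30, the basic dehydrin, was at 2845, 4961 and 1758. It was highest at 3 h, 1.74-fold above the acclimated array, and lowest at 24 h, 1.62-fold below it; both differences lay within 2-fold. The log2 ratios were 0.80 ± 0.33 and -0.69 ± 0.40. From 3 h to 24 h it was 2.82-fold lower (log2 ratio -1.50 ± 0.35).

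**Figure D1:**
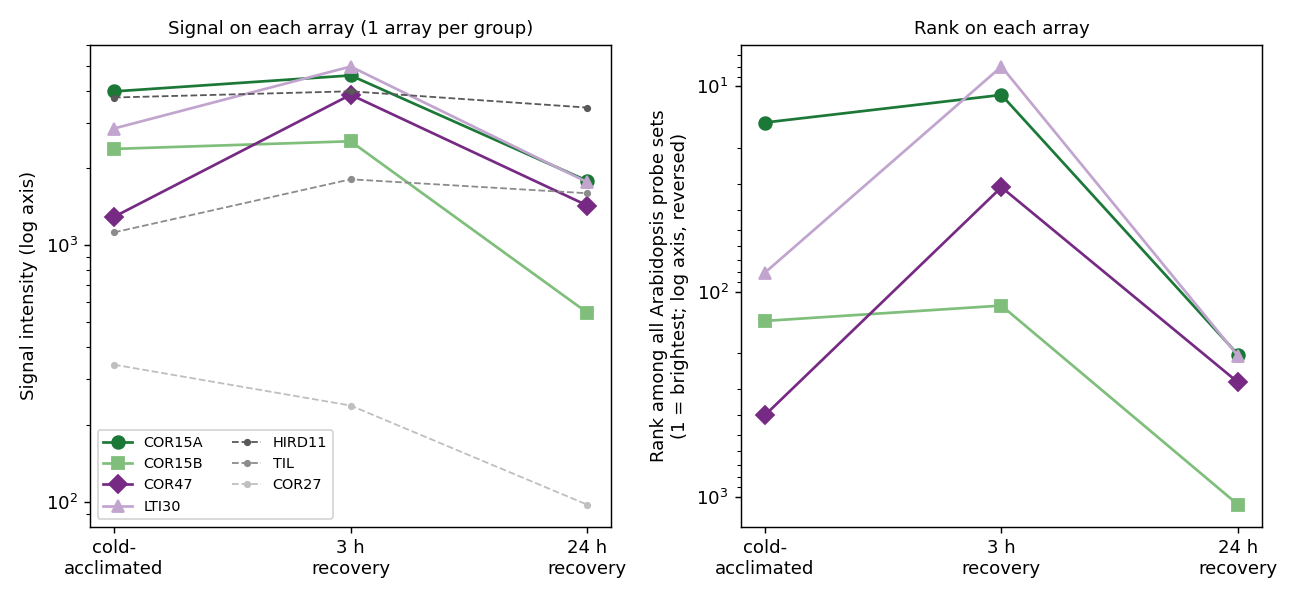
Left, signal intensity (log axis) of the 4 genes, with dashed lines for HIRD11, TIL and COR27, on the cold-acclimated, 3 h and 24 h arrays, 1 array each; right, the rank of the 4 genes among 22746 Arabidopsis probe sets, 1 being the brightest. COR15A and COR15B are nearly level to 3 h (lower at 3 h with hybridization control scaling) and then lower, COR47 and LTI30 peak at 3 h, and COR15B ends at rank 1093.

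Each probe set was also ranked among all 22746 on its array. No scale factor alters a rank, so ranks cannot tell the usual scaling from scaling to hybridization controls. COR15A was the 15th brightest on the acclimated array, the 11th at 3 h and the 203rd at 24 h. COR15B was at rank 139, then 117, then 1093. COR47 moved from rank 401 to rank 31 at 3 h and back to rank 277. LTI30 went from rank 81 to rank 8 and then to rank 206. At 3 h all 4 were thus in the brightest 0.514% of probe sets, and at 24 h COR15B alone was outside the brightest 1.22%. Whether probes this bright were near saturation cannot be read from the deposited values.

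At 3 h, 1 of the 4 genes, COR47, exceeded its acclimated signal by 2-fold or more, and 0 fell short of it by as much. Of 16769 Arabidopsis probe sets measured on either array, 6.11% were higher and 3.95% lower by 2-fold or more. The median log2 ratio of the 4 genes was 0.50, beside -0.13 for all measured probe sets. Bright probe sets vary less, so the 262 probe sets whose mean log2 signal was at least that of the dimmest of the 4 genes were also counted, the 4 included. The dimmest was COR15B, and its mean over the 3 arrays takes in its low 24 h signal. Of these, 2.67% were higher and 0.382% lower by that margin at 3 h. In that set COR47 had the 3rd highest ratio, LTI30 the 12th, COR15A the 40th and COR15B the 68th. Among all 16769 measured, COR47 was 530th from the highest, LTI30 1323rd, COR15A 3939th and COR15B 5026th.

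Scaling to the bacterial hybridization controls, RNAs added in fixed amounts before hybridization, changed the 3 h picture. These controls were 1.70-fold higher on the 3 h array than on the acclimated one after the usual scaling. With that scaling, COR47 had a log2 ratio of 0.82, short of 2-fold, LTI30 was at 0.04, and COR15A and COR15B turned to -0.56 and -0.66. With scaling to 7 reference genes LTI30 passed 2-fold, at 1.01.

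At 24 h, 2 of the 4 genes, COR15A and COR15B, were at least 2-fold lower than on the acclimated array and 0 were higher. In all, 8.47% of 16965 measured probe sets were lower and 8.56% higher by as much. Among the 262 bright ones 4.96% were lower and 2.29% higher. COR15B had the lowest ratio of the 262 and COR15A the 10th lowest, whereas LTI30 was 55th from the lowest and COR47, with the 84th highest ratio, was in the upper part. The mean of COR15B was the cut for the 262. A gene as bright in acclimated plants with a deeper decline could thus be left out, so the place of COR15B is partly set by the cut. Among all 16965 measured, COR15B was 111th from the lowest, COR15A 1056th and LTI30 2647th, and COR47 was 7039th from the highest. The median of the 4 genes was -0.93, beside 0.01 for all measured probe sets. A loess correction brought COR15A just inside 2-fold (-0.98), and scaling to the hybridization controls put LTI30 past it (-1.21) and turned COR47 to -0.37.

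**Figure D2:**
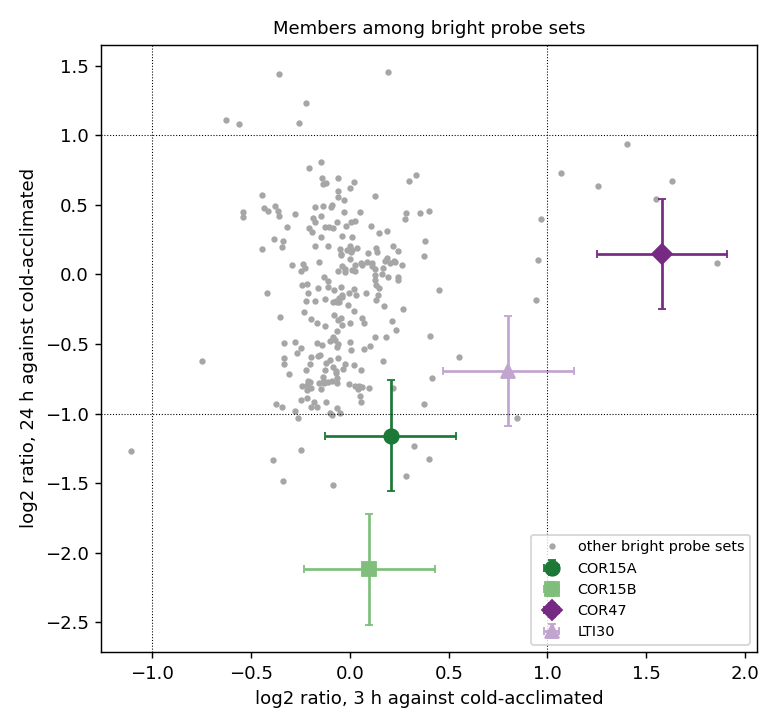
Log2 ratio at 3 h (horizontal) and at 24 h (vertical), each against the cold-acclimated array, for 262 bright probe sets (grey) and the 4 genes, with bars of 1 SD from probe pairs and dotted lines at 2-fold. COR47 lies at the right near 0 on the vertical axis and COR15B at the bottom near 0 on the horizontal one. The mean signal of COR15B was the cut for the 262, which partly sets its place. Both axes share the cold-acclimated array.

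Between 3 h and 24 h, both from darkness at 20 °C, all 4 genes were lower by more than 2-fold, and 0 were higher. Of 16968 measured probe sets 8.67% were lower and 10.7% higher by 2-fold or more, and of the 262 bright ones 6.87% were lower and 2.67% higher. The median of the 4 genes was -1.46, beside 0.07 for all measured probe sets. COR15B had the lowest ratio of the 262, again a place partly set by the cut at its own mean. LTI30 had the 7th lowest, COR47 the 8th and COR15A the 10th. Among all 16968 measured, COR15B was 218th from the lowest, LTI30 672nd, COR47 744th and COR15A 833rd. All 4 were past 2-fold under each of the 10 other processing settings, with log2 ratios between -2.33 and -1.12. The 24 h plants had also been 21 h longer in the dark and were taken at another hour of the day, which cannot be told apart from recovery time. Whole courses were counted over 17379 probe sets measured on any array, with a 2-fold margin. The COR15 course, inside the margin at 3 h and below it at 24 h against acclimated, was found in 1231 (7.08%). It was thus not particular to the COR15 genes. The COR47 course, above the margin at 3 h, inside it at 24 h and past it downward between, had 523 (3.01%). The LTI30 course, inside it against acclimated at both times and past it downward between, had 203 (1.17%).

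**Figure D3:**
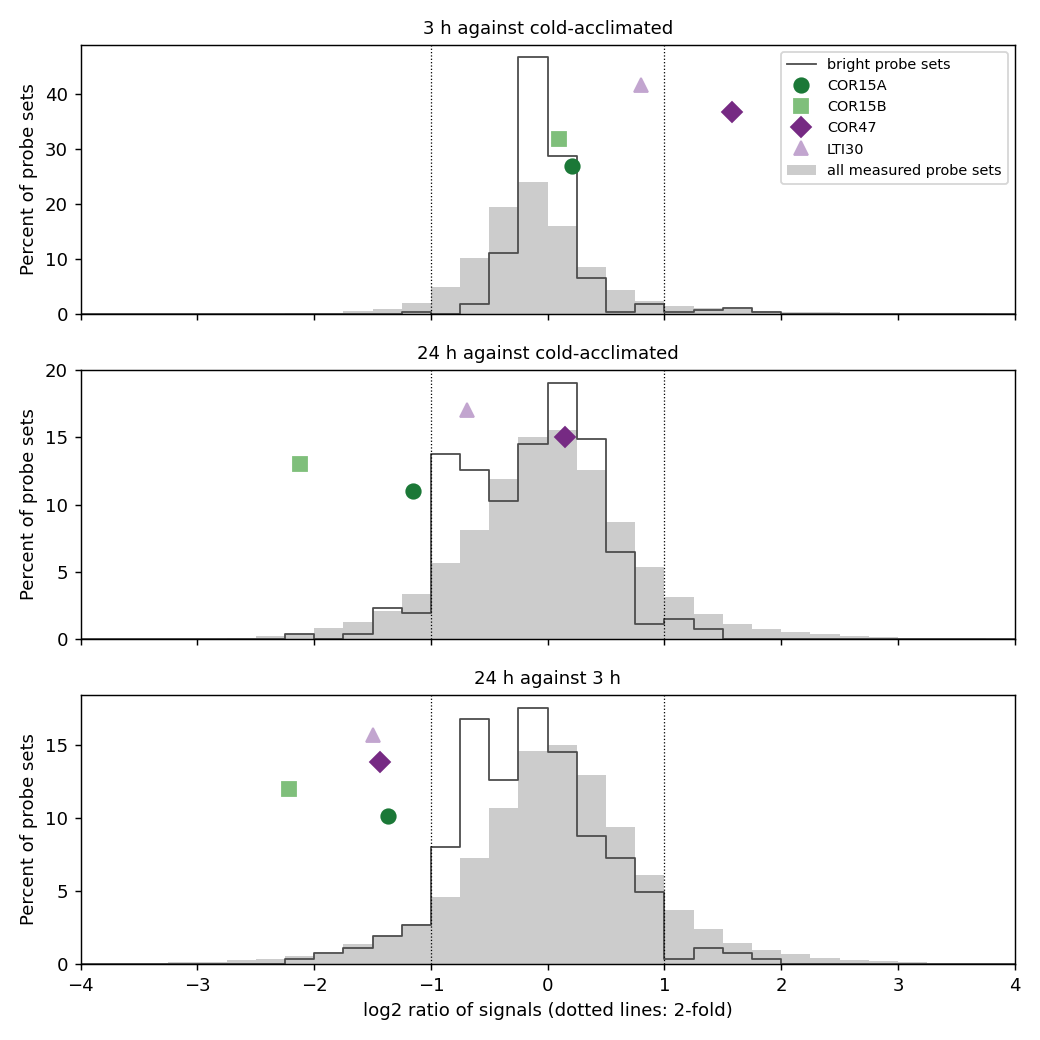
Distribution of log2 ratios in the 3 comparisons, as percent of all measured Arabidopsis probe sets (grey bars) and of the 262 bright ones (line), with the 4 genes marked at their ratios; the height of a marker carries no value. At 3 h COR47 alone is right of the 2-fold line (none is with hybridization control scaling), and between 3 h and 24 h all 4 genes are left of it.

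The chloroplast and dehydrin pairs were compared through their log2 ratios, in which a scale factor of an array cancels. The mean log2 ratio at 3 h was 1.19 for COR47 and LTI30 and 0.15 for COR15A and COR15B, a difference of 1.04 ± 0.33 (SD from probe pairs). At 24 h against the acclimated array the means were -0.27 and -1.64, a difference of 1.36 ± 0.40. By pair means, signals of COR47 and LTI30 were thus 2.05-fold higher relative to COR15 signals at 3 h than in acclimated plants. At 24 h they were 2.57-fold higher. Both differences use the same acclimated array, so they are not separate observations. Taken singly, LTI30 and COR15A were not separated by more than 2 SD of either probe error. The log2 ratio of LTI30 was above that of COR15A by 0.60 at 3 h (SD 0.47 or 0.31) and by 0.46 at 24 h (SD 0.56 or 0.51). The step from 3 h to 24 h was -1.46 for the dehydrins and -1.79 for the COR15 genes, a difference of 0.33, beside an SD of 0.35, or of 0.25 from probe pairs above the median signal. Over the 10 other settings the 3 differences ranged from 1.03 to 1.12, from 1.35 to 1.48 and from 0.31 to 0.37, hybridization control scaling included.

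Differences within each pair were set against the same probe error. At 3 h the log2 ratio of LTI30 was 0.78 below that of COR47 (SD of such a difference 0.47, or 0.31 from probe pairs above the median signal). At 24 h against acclimated it was 0.84 below (SD 0.56 or 0.51). COR15B was 0.11 below COR15A at 3 h and 0.96 below at 24 h, with the same SDs. Between 3 h and 24 h COR15B was 0.85 below COR15A (SD 0.49 or 0.35). Of the 6 pairs of genes, 2 lay more than 2 SD apart at 3 h, COR47 against each COR15 gene. With the smaller SD 4 did, adding LTI30 against COR47 and against COR15B. At 24 h against acclimated 3 did with either SD, COR47 against each COR15 gene and LTI30 against COR15B. Between 3 h and 24 h 0 of 6 did with the larger SD. With the smaller one 3 did, COR15B against each of the others, so whether the decline of COR15B stood apart depended on which probe pairs gave the error. COR15A, COR47 and LTI30 were within 1 SD of each other in that step by either.

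**Figure D4:**
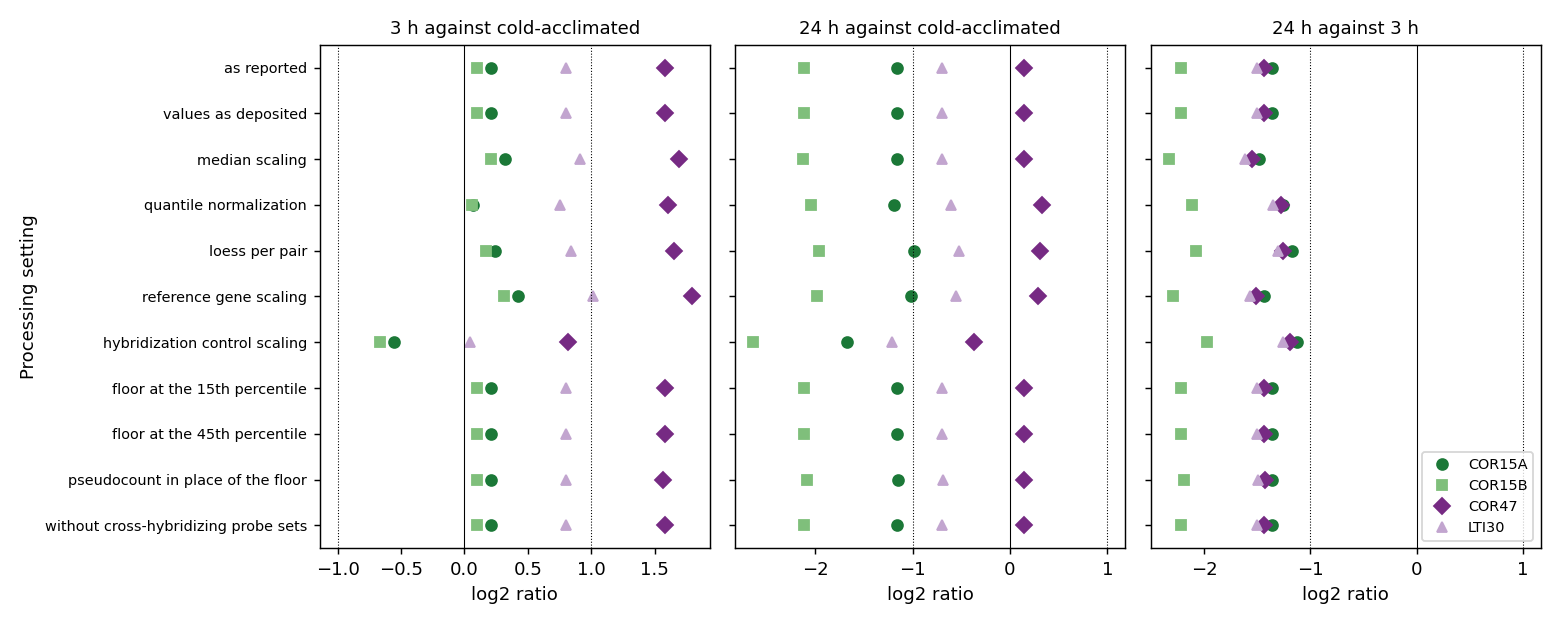
Log2 ratio of each gene (horizontal) in the 3 comparisons under the reported setting and 10 others (vertical), with dotted lines at 2-fold. Hybridization control scaling shifts all 4 genes left by the same amount in the first and second panels, while their spacing stays close to constant; in the third panel every point is left of -1.

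Most other genes of the cold response are not named by the array annotation and are not analysed here, ERD10, RAB18, RD29A, the KIN genes and the CBF factors among them. Of 8 further genes listed as dehydrins, 4 were named. HIRD11, a small dehydrin, was at 3757, 3973 and 3432 in acclimated plants, at 3 h and at 24 h. Its log2 ratios to the acclimated array were 0.08 and -0.13, so it showed neither the 3 h peak of COR47 nor the 24 h decline of COR15B. AT4G38410, which the reference leaves without a name, was dim, at 22.1, 46.0 and 20.8, with log2 ratios of 1.06 at 3 h and -1.15 from 3 h to 24 h. The remaining members, AT2G21490 and AT4G39130, were below the floor of 16.1 on the acclimated and 3 h arrays, and AT4G39130 reached 19.1 at 24 h. Of the 2 members above the floor on all arrays, HIRD11 and AT4G38410, 1 was thus past 2-fold upward at 3 h, 0 at 24 h against acclimated, and 1 downward from 3 h to 24 h. Over all measured probe sets the shares were 6.11% upward at 3 h and 8.67% downward from 3 h to 24 h. At 24 h against acclimated they were 8.56% upward and 8.47% downward.

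Of 23 other cold-responsive genes 3 were named. COR27, a cold- and clock-regulated gene, was at 342.1, 237.1 and 97.4, and AT4G33980 at 153.0, 66.6 and 29.4. Both were lower at each later array, and both were past 2-fold at 24 h against acclimated (log2 ratios -1.81 and -2.38), as the COR15 genes were. TIL, the temperature-induced lipocalin, was at 1120, 1804 and 1592 and lay within 2-fold throughout. The list's median was -0.53 at 3 h, -1.81 at 24 h and -1.18 from 3 h to 24 h, with 0 members past 2-fold upward and 1, 2 and 2 of 3 downward. Of all measured probe sets, 6.11%, 8.56% and 10.7% were past it upward and 3.95%, 8.47% and 8.67% downward. With 3 of 23 genes named, these values do not describe the list as a whole. Of 20 cold signalling genes 2 were named. The zinc-finger repressor STZ, also called ZAT10, had its 3 h peak in common with COR47, at 162.6, 1273 and 162.1, and the SUMO ligase SIZ1 was at 163.6, 203.5 and 234.8.

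Of 30 LEA genes outside the dehydrins, 20 were named, and 10 of these reached the floor on at least 1 array. Above the floor on both arrays of the comparison with acclimated plants were 3 at either time, of which 1 was at least 2-fold higher and 0 lower. That one was LEA4-5, at 31.5, 209.8 and 122.0, so it was above its acclimated signal at both times. Over all measured probe sets, 6.11% were higher and 3.95% lower by as much at 3 h, and 8.56% and 8.47% at 24 h. The drought-induced DI21 was at 163.4, 150.1 and 99.4, and AT2G44060, with the synonym LEA26, at 767, 931 and 735, both within 2-fold. A further 3 genes at 3 h and 6 at 24 h were above the floor on the recovery array alone, so their ratios could only be upward and their number is not read as a direction. Among them AT3G02480 was at 11.0, below the floor, on the acclimated array, at 39.3 at 3 h and at 171.6 at 24 h. It was above the floor on both recovery arrays, and there its direction was opposite to that of the COR15 genes. AT2G23110 was at 7.63 (below the floor), 29.0 and 37.5. AT2G46140, with the synonym LEA27, and AT3G17520 were below the floor on the first 2 arrays and at 33.9 and 29.8 at 24 h. The lists of abscisic acid and drought response had 0 of 22 genes named, and that of cold sugar metabolism 1 of 13, the sucrose-phosphate synthase ATSPS4F, at 254.0, 139.2 and 23.7.

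The genes nearest to each of the 4 were sought among probe sets of 1 gene above the floor on all 3 arrays and with a highest signal at or above the 90th percentile. Likeness was the distance between their pairs of log2 ratios, at 3 h and at 24 h against the same acclimated array, so it rests on 3 arrays only. Nearest to COR15A were AT2G46170 (distance 0.07), the plastid-encoded psbB of photosystem II (0.09) and the plastid malate dehydrogenase MDH (0.14). Signals of psbB were 478, 587 and 217, close to the proportions of COR15A. Not all plastid-encoded genes shared this course with psbB, as picked examples show. Log2 ratios against acclimated at 3 h and 24 h were -1.11 and -1.27 for psbZ and -0.10 and -0.62 for psbA. They were 0.38 and 0.24 for psbH and 0.11 and 0.35 for psaA. Nearest to COR15B were AT1G62780 (0.18), AT3G05060 (0.28) and the stromal ascorbate peroxidase SAPX (0.30), at 511, 472 and 135.6. Nearest to COR47 were AT1G27100 (0.16), AT2G27260 (0.18) and AT2G15320 (0.22), and nearest to LTI30 were the pectin methylesterase gene ATPMEPCRB (0.14), SEC (0.22) and AT2G34250 (0.23). Of 1367 probe sets, 11 lay within 0.25 log2 units of COR15A, 7 of COR47, 3 of LTI30 and 1 of COR15B.

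Across the arrays, the median signal lay between 39.5 and 42.8 and 69.6 to 70.5% of Arabidopsis probe sets reached the floor. The number of arrays limits the precision of every value. The aerial tissue was checked on markers fixed for it. The leaf gene RCA, Rubisco activase, was bright on all arrays, at 3216, 2990 and 4068, and 9 other leaf markers were not named. Of 8 root markers 2 were named: EXPA7 was at 20.5, 22.5 and 8.38, near or below the floor, while PYK10, a beta-glucosidase, was at 15.8 and 18.6 and then at 106.0 at 24 h. PYK10 was thus higher on the array where the COR15 genes were lower; its part in the result was not tested. Flower and seed markers had 0 members named.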

How the data were processed

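Members and gene lists were chosen with earlier results of these data known. The authors deposited linear signal intensities per probe set, made with MAS5 per the submitters' processing notes, whose version and settings are not given in the sources used here. From these, each array was scaled to a 2% trimmed mean of 100 over 22810 probe sets (100.0 on each as deposited), and signals below the 30th percentile of Arabidopsis signals (16.1) were set to that floor. A probe set at or above the floor on either array counted as measured. With 1 array per group no test was run; log2 ratios were taken and differences of at least 2-fold counted.

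Names came from the platform's annotation (1 gene for 13513 probe sets, several for 503, none for 8730) and RefSeq's TAIR10.1 table, which matched 13436. The 12 lists held 156 places, 44 of them named; a gene's brightest probe set stood for it. Genes named were the 4 members, the named members of the dehydrin and other cold-responsive lists, up to 3 of largest ratio in each comparison from each further list (AT2G44060 and DI21 were added after their values were seen), and the 3 nearest to each member. The plastid-encoded psbZ, psbA, psbH and psaA, and the neighbours of the members on the chromosomes, were named outside this rule. Sequences were not used here, so the planned promoter and protein descriptions were not made. The counting was tested on simulated data for the 3 h comparison only, with changes larger than 2-fold in probe sets well above the floor. That test did not cover changes near 2-fold or changed genes near the floor. Software was Python 3.11.15, numpy 2.4.6, pandas 2.3.3, scipy 1.17.1, statsmodels 0.14.6 and matplotlib 3.10.9.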

Additional observations from a re-analysis of the deposited data

How the results depend on the processing

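The 10 alternatives changed the scaling, the floor or the probe sets used. No paired analysis was possible because each group held 1 array. The values as deposited, median scaling, quantile normalization and leaving out cross-hybridizing probe sets moved no count of calls by over 1.5 times and no log2 ratio by more than the probe error. Scaling to the hybridization controls moved the median log2 ratio of the 4 genes to -0.26 at 3 h and -1.45 at 24 h against cold-acclimated and left 0 of them at least 2-fold higher at 3 h. With it 439 of all probe sets were higher and 6274 lower at 3 h, and 672 higher and 3867 lower at 24 h, against 1024, 663, 1453 and 1437 as reported. Reference gene scaling put 2 of the 4 genes past 2-fold at 3 h, and loess left 1 past it at 24 h against cold-acclimated. The count of all probe sets lower at 3 h was 374 with reference gene scaling, 423 with loess, 392 with a pseudocount and 403 with the floor at the 45th percentile. With the floor at the 15th percentile, 1659 were higher and 1446 lower at 3 h, 2234 higher and 2195 lower at 24 h, and 2258 lower at 24 h than at 3 h. The cause of these shifts was not tested. Between-plant spread is not measured by single arrays, and the dim list members near the floor have the least certain ratios.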

Other observations

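In the TAIR10.1 annotation COR15A and COR15B are neighbours on chromosome 2, COR47 lies beside the dehydrin gene ERD10 on chromosome 1 and LTI30 beside the dehydrin gene XERO1 on chromosome 3. ERD10 and XERO1 are not named by the array annotation. Of the 18 protein-coding genes within 3 places of the 4 on either side, 8 were named and 6 measured. At 3 h 0 of the 6 were past 2-fold, and their log2 ratios ran from -0.77 to 0.24. At 24 h against cold-acclimated 1 was at least 2-fold higher, AT3G51000 near LTI30 (121.5, 126.1 and 300.1 on the cold-acclimated, 3 h and 24 h arrays), and 0 were lower. AT2G42520, whose annotated span overlaps that of COR15B, was at 141.1, 132.1 and 121.2, without the 24 h decline of COR15B.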
